A study of Mus musculus with 6 samples.

Results

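The immunoglobulin heavy chain variable genes (Ighv genes) supply the V segment of the antibody heavy chain, and 112 of them were followed here in RNA of sorted splenic follicular helper T (Tfh) cells. Members were taken by a rule on the annotation, a symbol starting with Ighv and the gene type of an immunoglobulin V gene, and made up 112 of the 53379 genes counted. The 70 annotated Ighv pseudogenes were kept apart. The rule used no measured value.

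Tfh cells were sorted from 3 control (CTL) and 3 Prdm1-CKO female mice, and each mouse gave 1 library. Prdm1-CKO mice carried Prdm1 fl/fl with CD11c-CRE, so BLIMP-1, the protein of Prdm1, was deleted in dendritic cells with high CD11c and not by design in T cells or B cells. CTL mice were Prdm1 fl/fl without CD11c-CRE or Prdm1 +/+ with CD11c-CRE, and the labels do not say which of these each CTL mouse was. Sample titles write Blimp1 KO for the second group where its genotype label has KD, and it is named Prdm1-CKO throughout. All mice were 6 to 8 weeks old, had been given NP-CGG in CFA, and were sampled on day 7. Live TCRβ+ CD4+ CXCR5+ PD1+ cells were sorted, and no B cell marker is stated as excluded by that gate.

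Heavy chain variable genes lie in a long array upstream of the D, J and constant segments, and developing B cells join a single V segment to a D and a J segment. A B cell and the plasma cells that descend from it then transcribe the V gene of that rearrangement, so the set of V genes in RNA follows the B lineage clones present and the amount of immunoglobulin RNA that each holds. Plasma cells carry far more of this RNA than resting B cells. T cells rearrange the T cell receptor loci in place of the antibody loci, and their defining transcripts are those of the T cell receptor and CD3 chains.

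All 112 members lay on the minus strand of chromosome 12 of GRCm38, between 113578504 and 116000461, and fell into 16 families named by the first number of the symbol. Family Ighv1 held 52 of them. Their annotated exons added up to between 294 and 480 bases, with a median of 353. Members of a family can be nearly identical, and the reads were 25 bases long, so each member was cut into all its stretches of 25 bases and those stretches were looked for in all other annotated Ighv genes, pseudogenes included. A median of 47.1% of a member's stretches occurred in no other Ighv gene (called unique from here on), with a range from 2.39% for Ighv1-71 to 100% for Ighv13-2. Values of a single member are therefore uncertain where a near copy exists, although the second read of a pair can resolve some of these cases.

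The V exon sequences below belong to the members on which the results turn. These include the 2 with the highest mean level (Ighv6-3 and Ighv7-1) and the one with the smallest p (Ighv5-9-1). Ighv1-50 was the one with at least 10 counts in every Prdm1-CKO mouse and 0 in every CTL mouse. Ighv8-2 was high in a single mouse. Each sequence is 300 bases of coding sequence from the GENCODE M21 transcript, printed 5′ to 3′ on the minus strand of GRCm38. Capitals mark bases for which every overlapping stretch of 25 bases is absent from all other annotated Ighv genes, pseudogenes included, so a read over capitals alone can be told apart from the rest of the locus.
Ighv7-1, chr12:113896408-113896707: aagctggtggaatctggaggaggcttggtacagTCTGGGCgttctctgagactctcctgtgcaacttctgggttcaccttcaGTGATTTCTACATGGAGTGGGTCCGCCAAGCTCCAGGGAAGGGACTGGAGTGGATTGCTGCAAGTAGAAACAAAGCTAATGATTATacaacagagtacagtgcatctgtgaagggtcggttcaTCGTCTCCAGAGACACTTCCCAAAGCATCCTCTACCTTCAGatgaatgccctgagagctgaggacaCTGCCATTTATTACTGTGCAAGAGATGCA
Ighv6-3, chr12:114391712-114392011: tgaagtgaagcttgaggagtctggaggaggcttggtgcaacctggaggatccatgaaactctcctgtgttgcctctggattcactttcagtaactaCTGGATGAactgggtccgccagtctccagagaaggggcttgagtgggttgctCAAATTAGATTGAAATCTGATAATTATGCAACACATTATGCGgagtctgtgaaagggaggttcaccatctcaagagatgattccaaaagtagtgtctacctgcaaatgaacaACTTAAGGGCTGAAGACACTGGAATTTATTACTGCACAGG
Ighv5-9-1, chr12:113736111-113736410: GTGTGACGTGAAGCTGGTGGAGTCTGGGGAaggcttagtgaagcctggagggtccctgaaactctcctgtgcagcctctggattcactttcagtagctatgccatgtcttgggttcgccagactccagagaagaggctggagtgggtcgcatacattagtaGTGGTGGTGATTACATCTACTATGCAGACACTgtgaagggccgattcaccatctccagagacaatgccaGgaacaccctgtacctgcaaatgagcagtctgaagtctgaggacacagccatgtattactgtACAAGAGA
Ighv1-50, chr12:115119748-115120047: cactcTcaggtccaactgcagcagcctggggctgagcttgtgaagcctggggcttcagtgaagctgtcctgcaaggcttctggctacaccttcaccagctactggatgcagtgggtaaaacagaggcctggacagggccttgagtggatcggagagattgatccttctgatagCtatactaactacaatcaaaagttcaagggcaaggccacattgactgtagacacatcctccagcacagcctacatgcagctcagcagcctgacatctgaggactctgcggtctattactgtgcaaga
Ighv8-2, chr12:114462291-114462590: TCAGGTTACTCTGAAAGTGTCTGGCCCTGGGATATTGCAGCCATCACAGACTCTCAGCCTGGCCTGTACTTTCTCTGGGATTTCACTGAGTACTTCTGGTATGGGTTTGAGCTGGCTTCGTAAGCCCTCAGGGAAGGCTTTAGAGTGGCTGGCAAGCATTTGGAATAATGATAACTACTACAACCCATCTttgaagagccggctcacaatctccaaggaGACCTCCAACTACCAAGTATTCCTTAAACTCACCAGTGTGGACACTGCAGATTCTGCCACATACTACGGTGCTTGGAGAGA
Capitals covered 54.3% of these bases in Ighv7-1, 30% in Ighv6-3, 23.7% in Ighv5-9-1 and 90.3% in Ighv8-2. In Ighv1-50 only 2 bases were in capitals, and 37.2% of its stretches were shared with Ighv1-69.

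The libraries held 7147601 to 16973392 counts, and the median was 8623180 for CTL and 14885913 for Prdm1-CKO. CTL replicate 2 stood apart from the other 5 libraries, at 134.6 on a first principal component that held 56.4% of the variance. The Ighv total, the diversity and the counts of edgeR calls for members are given without it too where they move with it. For the sums and calls of other gene lists, values without it were not computed. The sorted cells carried T cell RNA, with all 15 T cell and Tfh markers among the genes tested and a summed level between 6177 and 7585 CPM (counts scaled to a common library size with TMM factors). Markers of other cells were present as well, since all 14 B cell markers passed the filter and summed to between 121 and 286 CPM. Prdm1 itself was at 28.9, 29.97 and 27.5 CPM in CTL and 30.2, 30.8 and 30.9 CPM in Prdm1-CKO mice, and edgeR gave it a log2 fold change of 0.09 with a standard error of 0.19 and an adjusted p of 0.996. Its RNA in T cells does not check a deletion made in dendritic cells.

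Ighv RNA was found in every mouse. Of the 112 members, 101 had at least 1 count in some mouse, 82 had at least 10 counts in some mouse, 19 reached 1 to 9 counts at most, and 11 had 0 counts in all 6 mice. The members summed to 5603, 1572 and 3077 counts in CTL replicates 1 to 3 and to 6401, 5003 and 9440 counts in Prdm1-CKO replicates 1 to 3. These sums are between 0.0182% and 0.0634% of all counts of a library. The 70 pseudogenes together had between 0 and 33 counts. The 11 members at 0 ranged from 7.53% to 99.1% in unique stretches, with a median of 28.9%. For the members at 0, a floor of 3 counts is 0.169 to 0.444 CPM depending on the library, and covers counting error only.

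**Figure D1:**
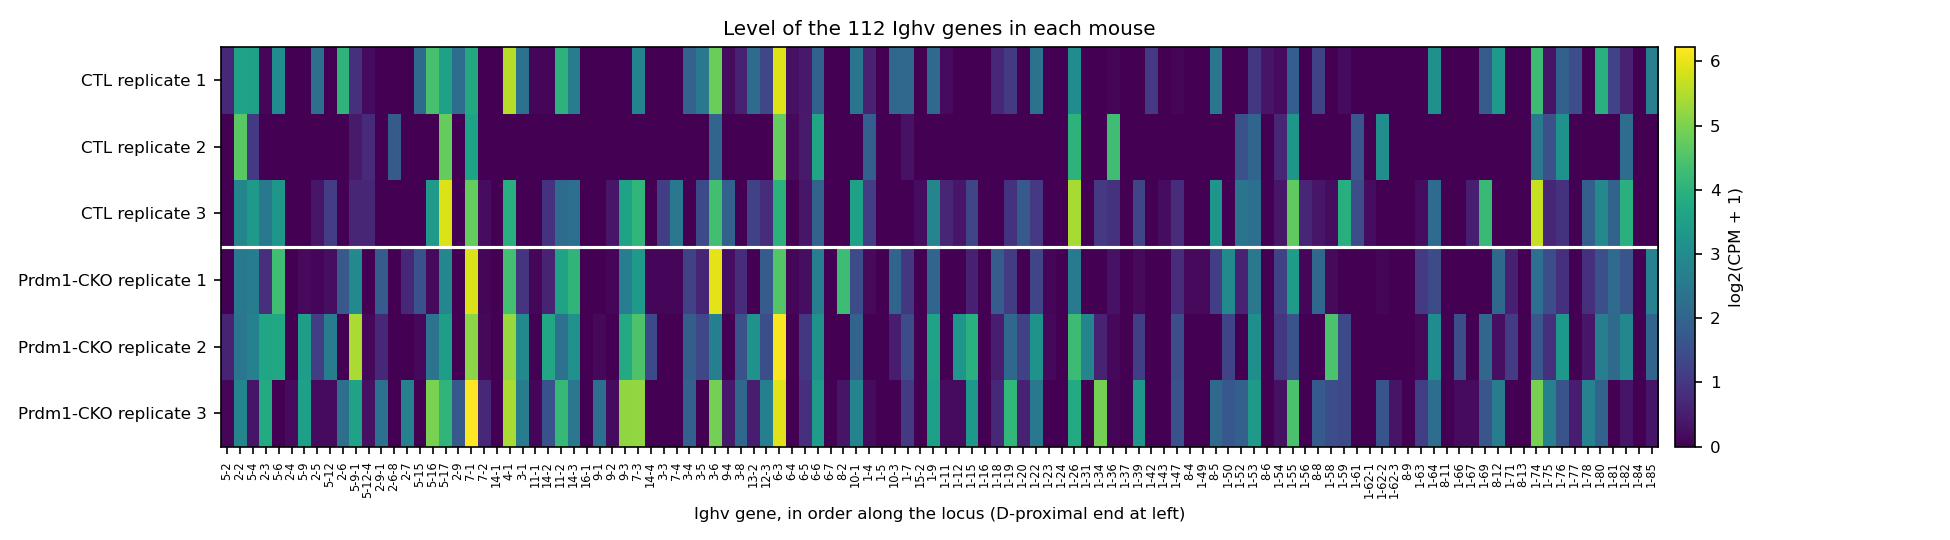
Level of all 112 Ighv genes (columns, in order along the locus from the D-proximal end, named without the prefix Ighv) in each of the 6 mice (rows), as log2(CPM + 1) by colour. Ighv6-3, Ighv7-1 and Ighv3-6 are bright in most rows, while 86 columns are at 0 counts in CTL replicate 2 against 33 to 49 in the other mice.

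The total Ighv level was 384, 186 and 455 CPM in CTL mice and 361, 509 and 646 CPM in Prdm1-CKO mice. Prdm1-CKO replicate 1 lay below CTL replicates 1 and 3, so the groups overlapped. The means were 342 ± 139 CPM in CTL and 505 ± 143 CPM in Prdm1-CKO mice (SD, n = 3), a ratio of 1.48. Without CTL replicate 2, the lowest of all, the ratio was 1.204.

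Transcripts of the other antibody chains and of B cells were set beside the Ighv total. The 100 kappa light chain V genes (Igkv) summed to 376, 212 and 488 CPM in CTL and 302, 587 and 603 CPM in Prdm1-CKO mice. The order of the mice within each group was the same as for Ighv, and the ratio of the Ighv to the Igkv sum stayed between 0.867 and 1.195 in all 6 mice. The 8 heavy chain constant genes, of which Ighm of the IgM class was the most abundant in every mouse, summed to between 2347 and 5314 CPM, and the Ighv sum was 0.0794 to 0.122 of theirs.

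The 14 B cell markers summed to 219, 121 and 145 CPM in CTL and 286, 187 and 279 CPM in Prdm1-CKO mice. All 3 Prdm1-CKO mice were above CTL replicates 2 and 3, and CTL replicate 1 was above Prdm1-CKO replicate 2. Of these 14 markers, 13 had a log2 fold change above 0, with a median of 0.75, and 0 reached an unadjusted p under 0.05 in either direction with edgeR (0 of 14 at an adjusted p under 0.05). The Ighv sum was 1.75, 1.53 and 3.15 times the B cell marker sum in CTL and 1.26, 2.72 and 2.32 times in Prdm1-CKO mice. The mean of that ratio was 2.15 ± 0.876 in CTL and 2.10 ± 0.754 in Prdm1-CKO mice (SD, n = 3), so relative to B cell markers the groups did not differ beyond their spread. In bulk RNA, fewer cells of a type and less RNA per cell cannot be told apart.

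The 10 plasma cell markers (such as Jchain, which joins IgM and IgA into polymers) summed to between 582 and 1043 CPM. Their sums were 837, 582 and 805 CPM in CTL and 853, 956 and 1043 CPM in Prdm1-CKO mice, with all Prdm1-CKO mice above all CTL mice. Jchain alone was at 384, 254 and 382 CPM in CTL and 363, 549 and 636 CPM in Prdm1-CKO mice, with overlap. The ratio of the Ighv sum to the plasma cell marker sum was 0.448 ± 0.123 in CTL and 0.525 ± 0.0987 in Prdm1-CKO mice (SD, n = 3), also with overlap. With edgeR, 1 of the 10 was higher (Jchain) and 1 lower (Pou2af1) at an unadjusted p under 0.05, and 0 reached an adjusted p under 0.05. Of all genes tested, 0.928% were higher and 1.42% lower at that unadjusted p. Of 7 germinal centre B cell markers, 3 were tested and 0 reached an unadjusted p under 0.05 with edgeR. Genes of V(D)J recombination and the surrogate light chain, which mark lymphocyte precursors, were low. Rag1, Rag2, Igll1 and Vpreb2 had 0 counts in all 6 mice and Vpreb1 had at most 9, while Dntt, which adds bases at the joints of a rearrangement, had 39, 3 and 4 counts in CTL and 54, 35 and 35 in Prdm1-CKO mice (unadjusted p = 0.153, edgeR). The 10 markers of macrophages, a further cell type of the spleen, summed to 1681, 563 and 874 CPM in CTL and 1469, 1218 and 1664 CPM in Prdm1-CKO mice. The groups overlapped, and the ratio of the means was 1.395. CTL replicate 2 was the lowest mouse and pulls the CTL mean down, and the ratio without it was not computed. All 10 markers had a log2 fold change above 0, with a median of 0.48. With edgeR, 2 of them (Cd5l and C1qc) were higher at an unadjusted p under 0.05, against 0.928% of all genes tested, while 0 passed an adjusted p under 0.05. The part of each of these cell types in the Ighv differences was not tested.

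**Figure D2:**
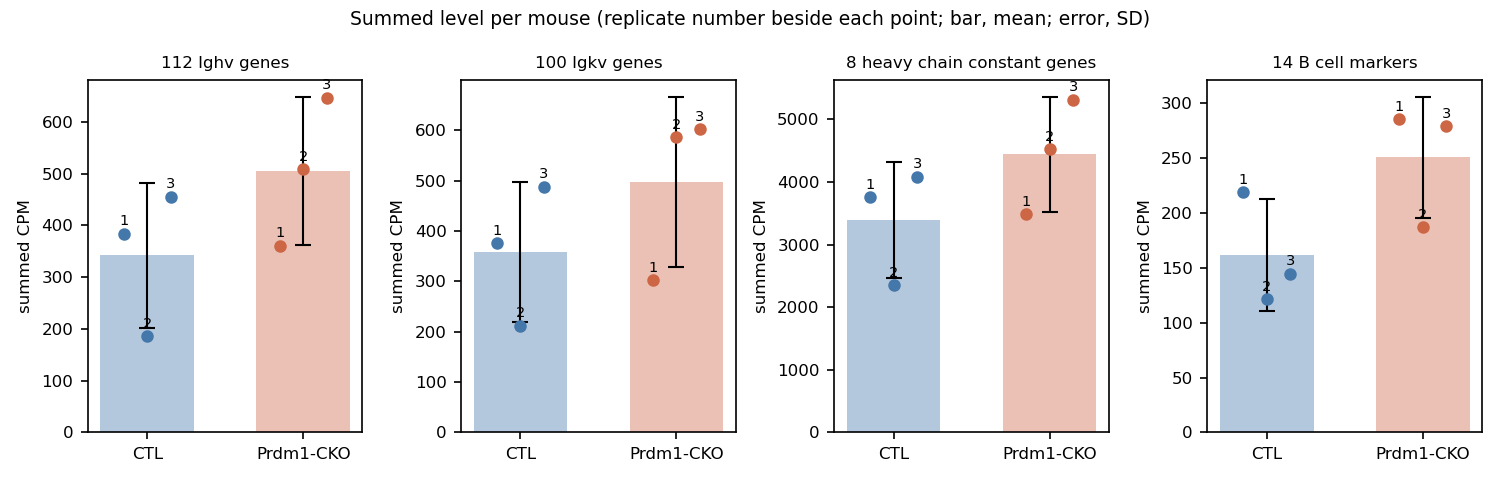
Summed CPM of the 112 Ighv genes, 100 Igkv genes, 8 heavy chain constant genes and 14 B cell markers, with 1 point per mouse (labelled by replicate number), bars at the group mean and error lines of 1 SD (n = 3). CTL replicate 2 is the lowest mouse in all 4 panels, and the groups overlap in each.

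Shares were then computed within each mouse, as the percent of the Ighv counts per kb of exon, so that members of different length could be compared. The 8 members with the highest mean level per kb over the 6 mice were Ighv6-3, Ighv7-1, Ighv3-6, Ighv4-1, Ighv5-17, Ighv1-74, Ighv1-26 and Ighv7-3. Each encodes a heavy chain V domain, and they come from families Ighv6, Ighv7, Ighv3, Ighv4, Ighv5 and Ighv1. Their mean levels ran from 119 CPM per kb for Ighv6-3 to 41.2 CPM per kb for Ighv7-3.

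Ighv6-3 was the leading member in 3 mice, with 16.1% in CTL replicate 1, 14.4% in CTL replicate 2 and 14.6% in Prdm1-CKO replicate 2. It held 3.44% in CTL replicate 3, 6.44% in Prdm1-CKO replicate 1 and 9.70% in Prdm1-CKO replicate 3. The spread within each group was thus wide, and the groups overlapped.

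The other 3 mice each had a leader of their own. Ighv5-17 led CTL replicate 3 with 11.8%, just above Ighv1-74 with 11.7%. Ighv3-6 led Prdm1-CKO replicate 1 with 17.9%, the highest share of any member in any mouse, followed by Ighv7-1 with 16.5%. Ighv7-1 led Prdm1-CKO replicate 3 with 11.7%, followed by Ighv6-3.

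As shares of plain counts, the leaders held between 11.4% and 17.0% of the Ighv counts of their mouse. The exact Clopper-Pearson 95% interval was 10.8% to 12.1% for Ighv7-1 in Prdm1-CKO replicate 3, which had the most Ighv counts, and 12.3% to 15.8% for Ighv6-3 in CTL replicate 2, which had the fewest. These intervals cover counting error only, since reads without molecular identifiers are not independent molecules.

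No mouse was close to a single dominant member. The leading 5 members held 44.8%, 59.4% and 43.6% in CTL and 51.5%, 39.9% and 38.8% in Prdm1-CKO mice. Between 4 members (CTL replicate 2) and 8 members (Prdm1-CKO replicates 2 and 3) were needed to reach 50%. The share of the leading member averaged 14.1 ± 2.18% in CTL and 14.7 ± 3.10% in Prdm1-CKO mice (SD, n = 3), a difference smaller than the spread in either group.

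The effective number of members, the exponential of the Shannon entropy of the shares, gives the number of equally abundant genes that would be as diverse. It was 26.9, 14.5 and 27.6 in CTL and 23.96, 32.9 and 31.8 in Prdm1-CKO mice. Prdm1-CKO replicate 1 fell below CTL replicates 1 and 3, so the groups overlapped. The difference of the means was 6.57 over all mice and 2.31 without CTL replicate 2.

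Members with at least 10 counts numbered 44, 19 and 37 in CTL and 51, 56 and 54 in Prdm1-CKO mice. Every Prdm1-CKO mouse was above every CTL mouse, also without CTL replicate 2. This number grows with depth, and Prdm1-CKO mice had the higher median library total and the highest Ighv sum. Depth did not follow this order in every pair of mice. CTL replicate 1 had 14177558 counts, 5603 of them Ighv, and 44 such members. Prdm1-CKO replicate 2 had 9753574 counts, 5003 of them Ighv, and 56 such members. The part of depth in the difference was not tested. The means were 33.3 ± 12.9 and 53.7 ± 2.52 members (SD, n = 3).

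**Figure D3:**
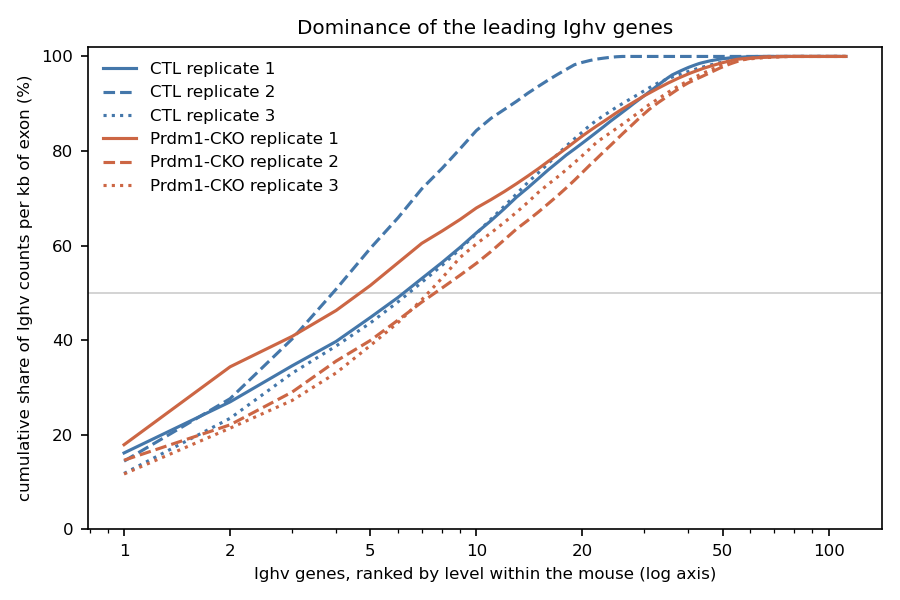
Cumulative share of the Ighv counts per kb of exon (vertical axis, %) held by the top-ranked Ighv genes of each mouse (horizontal axis, rank on a log scale), with CTL mice in blue and Prdm1-CKO mice in orange. CTL replicate 2 reaches 50% with 4 genes and Prdm1-CKO replicate 1 with 5, while the other 4 mice need 7 or 8.

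Among families, Ighv1 held the largest share in 5 of the 6 mice. It took 21.6%, 42.8% and 47.1% of the Ighv counts per kb in CTL and 17.3%, 31.4% and 29.6% in Prdm1-CKO mice. CTL replicate 1 was below 2 of the Prdm1-CKO mice, so the groups overlapped (37.2 ± 13.7% and 26.1 ± 7.65%, SD, n = 3). Over the 6 mice Ighv1 averaged 31.6% of the counts per kb with 46.4% of the members, whereas the single member of Ighv4 averaged 5.13% with 0.893% of the members.

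Family Ighv7, with 4 members, was the family whose share was higher in each Prdm1-CKO mouse than in any CTL mouse. Its shares were 5.03%, 6.09% and 10.3% in CTL and 19.1%, 11.3% and 17.5% in Prdm1-CKO mice. It was also the largest family in Prdm1-CKO replicate 1. The means were 7.13 ± 2.77% and 15.99 ± 4.14% (SD, n = 3), and leaving out any single mouse kept the difference between 7.29 and 11.2 percentage points. No p was computed for shares, and 1 of 16 families without overlap was found by looking at all of them. Among single genes tested, every Prdm1-CKO mouse was above every CTL mouse in 4.56% and below in 3.86%. The same share was not computed for other sets of genes, so the separation of Ighv7 is given as a description only.

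The gap between the groups in Ighv7 came mostly from Ighv7-1, with 3.42%, 6.09% and 5.76% in CTL and 16.5%, 6.93% and 11.7% in Prdm1-CKO mice. Its relative Ighv7-3 held 1.60%, 0% and 3.63% in CTL and 2.62%, 4.35% and 5.78% in Prdm1-CKO mice, with overlap. Ighv7-1 shares 7.38% of its stretches with its nearest relative, Ighv7-2, and is among the better resolved members at 87.9% unique stretches.

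The remaining large families overlapped between the groups. Ighv5 held 13.5%, 13.7% and 18.1% in CTL and 10.7%, 16.6% and 9.91% in Prdm1-CKO mice. Ighv6 held 17.0%, 21.2% and 4.18% in CTL and 8.05%, 16.4% and 11.4% in Prdm1-CKO mice, most of it Ighv6-3. Without CTL replicate 2 the sign of the Ighv6 difference turned, from 2.17 points lower in Prdm1-CKO to 1.34 points higher.

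Ighv3 held 10.9%, 1.73% and 5.14% in CTL and 18.9%, 3.73% and 6.58% in Prdm1-CKO mice, carried by Ighv3-6. Its difference of 3.80 points rested on Prdm1-CKO replicate 1 and was -0.78 points without that mouse. Ighv2 held 9.11%, 14.5% and 2.59% in CTL and 3.13%, 3.73% and 5.75% in Prdm1-CKO mice. The other families, Ighv8 to Ighv16, averaged at most 2.59% each, with 1 count in all for Ighv15 and 0 for Ighv16.

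**Figure D4:**
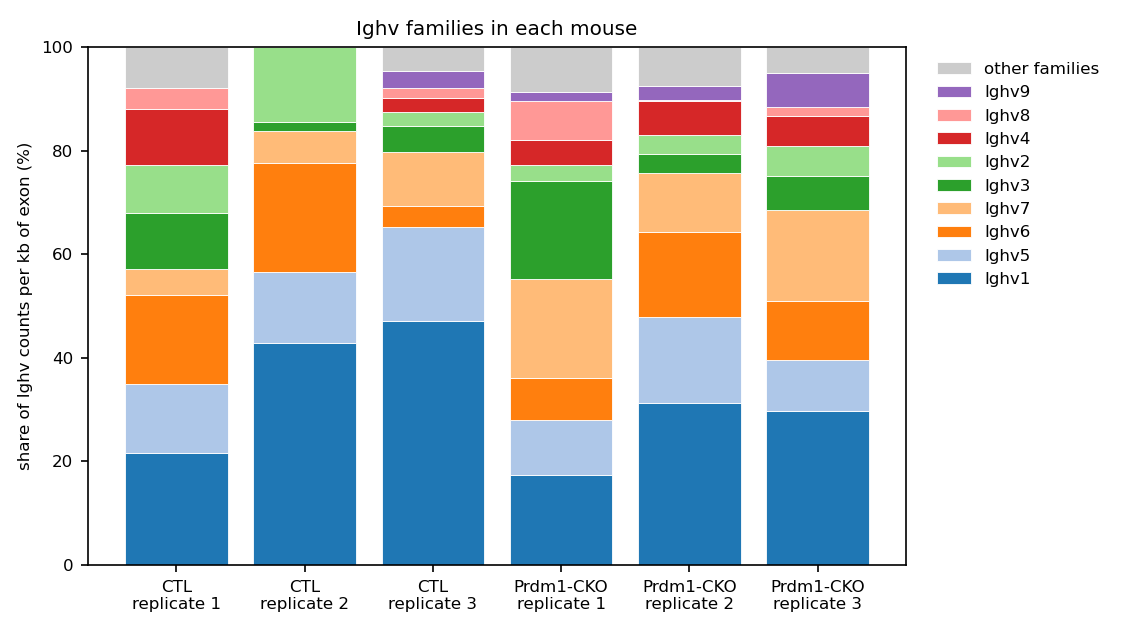
Share of the Ighv counts per kb of exon (vertical axis, %) taken by the 9 largest Ighv families in each of the 6 mice, with all other families in grey. Ighv1 runs from 17.3% to 47.1%, and Ighv7 is wider in the 3 Prdm1-CKO mice (11.3% to 19.1%) than in the 3 CTL mice (5.03% to 10.3%).

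Position along the locus was examined by cutting the 112 members into 4 stretches of 28 genes, from the D-proximal end to the distal end. The D-proximal stretch, from Ighv5-2 to Ighv14-3, held more than any other in all 6 mice, with 42.4%, 34.3% and 30.8% of the Ighv counts per kb in CTL and 42.2%, 39.7% and 37.2% in Prdm1-CKO mice. The distal stretch, from Ighv1-56 to Ighv1-85 and made up of families Ighv1 and Ighv8, held 17.7%, 14.8% and 26.7% in CTL and 8.66%, 13.4% and 10.8% in Prdm1-CKO mice. All Prdm1-CKO mice lay below all CTL mice in that stretch, with means of 10.95 ± 2.36% and 19.8 ± 6.21% (SD, n = 3). In the other 3 stretches the groups overlapped. The distal one was found by looking at all 4, no p was computed, and values with a mouse left out were not computed. Its nearest mice were CTL replicate 2 and Prdm1-CKO replicate 2. Among its members, unique stretches of 25 bases ran from 2.39% (Ighv1-71) to 89.9% (Ighv1-67).

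A core of members was found in every mouse. With at least 10 counts as the limit, 10 of the 82 detected members were present in all 6 mice, which were Ighv2-2, Ighv5-17, Ighv7-1, Ighv3-6, Ighv6-3, Ighv6-6, Ighv1-26, Ighv1-53, Ighv1-55 and Ighv1-74. That is 12.2% of the detected members, against 67.7% of all 17403 genes with at least 10 counts in some mouse. CTL replicate 2 set part of this number, and 18 members were present in all of the other 5 mice.

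At the other end, 8 members were private to 1 mouse, with at least 10 counts there and at most 3 in each of the other mice. They were 9.76% of the detected members, against 2.01% of all genes. Without CTL replicate 2 there were 9. Prdm1-CKO replicate 2 had 4 of them, namely Ighv1-12 with 85 counts, Ighv1-31 with 60, Ighv1-66 with 18 and Ighv14-4 with 16. Ighv9-1 was private to Prdm1-CKO replicate 3 with 56 counts, and Prdm1-CKO replicate 1 had none.

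The CTL mice had 1 private member each. Ighv1-42 had 16 counts in CTL replicate 1, Ighv2-6-8 had 20 counts in CTL replicate 2, and Ighv7-4 had 31 counts in CTL replicate 3. In its own mouse, no private member held more than 1.63% of the Ighv counts per kb, the share of Ighv1-12. Unique stretches of the private members ran from 27.5% for Ighv2-6-8 to 82.6% for Ighv7-4. Ighv1-42, at 27.8%, shared 42.2% with Ighv1-43. Private members with few unique stretches are poorly resolved from related members.

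Some members outside this rule were far more abundant in their mouse. Ighv8-2 had 329 counts in Prdm1-CKO replicate 1, where it held 5.28% of the Ighv counts per kb, 4 counts in Prdm1-CKO replicate 3 and 0 in the other 4 mice. Of its stretches, 98.5% were unique. Ighv1-36 had 159 counts and 10.5% in CTL replicate 2 against at most 6 counts elsewhere. Ighv1-34 had 430 counts in Prdm1-CKO replicate 3 against at most 7 elsewhere, and Ighv1-58 had 206 in Prdm1-CKO replicate 2 against at most 26. Unique stretches were 30.9% for Ighv1-36, 15.7% for Ighv1-34 and 61.8% for Ighv1-58. Ighv1-34 shared 40.4% of its stretches with Ighv1-19, so the counts of Ighv1-34 and Ighv1-36 are poorly resolved from those of related members. Ighv14-4, Ighv1-36, Ighv1-34 and Ighv1-58 were picked for mention after their values were seen.

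Pairs of mice were compared by the overlap of their shares, the sum over members of the smaller share. It was 33.5% to 46.0% within CTL, 47.5% to 58.5% within Prdm1-CKO and 27.8% to 54.8% between the groups. The 5 pairs with CTL replicate 2 gave 27.8% to 46.0%. Without that mouse, the pairs between groups gave 41.6% to 54.8% and the remaining CTL pair 44.3%, so mice of a group were not closer to each other throughout than to mice of the other group.

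The levels of the members were then compared between the groups with edgeR's quasi-likelihood test on all genes, of which 48 members passed the filter on low counts. The filter removed 34 members with at least 10 counts in some mouse. At an adjusted p under 0.05, 0 members were higher and 0 lower (0% of the 14555 genes tested in each direction), and the smallest adjusted p of a member was 0.996. At an unadjusted p under 0.05, 7 of the 48 (14.6%) were higher in Prdm1-CKO mice, against 0.928% of all genes tested, and 2 (4.17%) were lower, against 1.42% of all genes. The median log2 fold change of the 48 was 0.71, against 0.01 over all genes, and 31 of the 48 were above 0. Without CTL replicate 2, the median was 0.48 over 64 members that passed the filter, and at an unadjusted p under 0.05 there were 11 higher (17.2%) and 2 lower (3.12%), against 1.43% and 0.879% of all genes in that fit (0% at an adjusted p under 0.05). Members are not independent of each other, as they share libraries and, where nearly identical, reads.

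In 6 of the 48 (12.5%) every Prdm1-CKO mouse was above every CTL mouse, against 4.56% of all genes tested, and in 1 (2.08%) every Prdm1-CKO mouse was below, against 3.86%. Of the 82 members with at least 10 counts in some mouse, these numbers were 9 (11%) against 4.96% of all such genes, and 2 (2.44%) against 3.68%. With DESeq2, 4 members had an adjusted p under 0.05, all of them higher in Prdm1-CKO mice, against 0.0413% of the genes with an adjusted p. They were Ighv5-9-1, Ighv2-9-1, Ighv7-1 and Ighv1-50, and 0 members were lower (0.0118% of all). At an unadjusted p under 0.05, DESeq2 had 13 of 97 members higher and 6 lower, against 1.01% and 1.6% of all genes. With edgeR and no filter, 1 of 101 members, Ighv5-9-1, was higher at an adjusted p under 0.05 (0.00384% of all genes), and at an unadjusted p under 0.05 it had 27 higher and 8 lower, against 1.64% and 1.96% of all genes.

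Ighv5-9-1 had the smallest p. Its counts were 12, 3 and 4 in CTL and 122, 418 and 161 in Prdm1-CKO mice, or 0.822, 0.355 and 0.592 CPM against 6.87, 42.5 and 11.03 CPM. The groups did not overlap, and Prdm1-CKO replicate 2 was the highest. The log2 fold change was 5.02 (standard error 0.82, unadjusted p = 0.000266, adjusted p = 0.996, edgeR), and DESeq2 gave an adjusted p of 8.66e-08. It held 0.193%, 0.169% and 0.116% of the Ighv counts per kb in CTL and 1.70%, 7.49% and 1.53% in Prdm1-CKO mice. Its stretches were 61.7% unique, with 23.3% shared with Ighv5-4.

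Ighv1-50 had 0 counts in all 3 CTL mice and 119, 14 and 33 counts in Prdm1-CKO mice, the single member that met the count rule for a gene private to a group. Of all genes with at least 10 counts in some mouse, 0.0804% met that rule for Prdm1-CKO and 0% for CTL, where no member met it either. Against a floor of 3 counts per CTL library, the Prdm1-CKO mean was at least 10.3-fold higher. Its unadjusted p was 0.0011 (adjusted p = 0.996, edgeR) and its adjusted p from DESeq2 was 0.00374. Only 23.2% of its stretches were unique. Its printed sequence has almost no capitals, which is a stricter measure, since a capital asks that every overlapping stretch be unique.

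Ighv7-1 was the most abundant of the members with a small p. It had 187, 95 and 174 counts in CTL and 1039, 340 and 1077 in Prdm1-CKO mice, or 12.8, 11.3 and 25.7 CPM against 58.5, 34.6 and 73.8 CPM. The groups did not overlap, and the lowest Prdm1-CKO mouse was close to the highest CTL mouse. Its log2 fold change was 1.76 (standard error 0.40, unadjusted p = 0.0021, adjusted p = 0.996, edgeR), with an adjusted p of 0.0235 from DESeq2. Leaving out any single mouse kept the edgeR fold change between 1.498 and 2.21 on the log2 scale.

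Among members higher in Prdm1-CKO mice, Ighv1-19 and Ighv14-2 were next by p. Ighv1-19 had 16, 0 and 6 counts in CTL and 20, 32 and 238 in Prdm1-CKO mice, with Prdm1-CKO replicate 3 far above the rest. Its log2 fold change was 3.33 (standard error 1.24, unadjusted p = 0.0274, edgeR), and 1.68 without that mouse. Of its stretches, 37.6% were unique and 36.4% were shared with Ighv1-34, which was highest in the same mouse. Ighv14-2 had 1, 0 and 6 counts in CTL and 9, 118 and 29 in Prdm1-CKO mice, where replicate 1 was below CTL replicate 3 in CPM.

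Among the members lower in Prdm1-CKO mice, Ighv2-2 and Ighv5-17 reached an unadjusted p under 0.05. Ighv2-2 was at 11.03, 23.7 and 6.21 CPM in CTL and 4.68, 4.47 and 6.10 CPM in Prdm1-CKO mice. The gap between the nearest mice, CTL replicate 3 and Prdm1-CKO replicate 3, was small. Its log2 fold change was -1.42 (standard error 0.51, unadjusted p = 0.0229, adjusted p = 0.996, edgeR), and -0.78 without CTL replicate 2.

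Ighv5-17 was at 10.8, 26.1 and 58.7 CPM in CTL and 6.42, 10.2 and 15.7 CPM in Prdm1-CKO mice. Prdm1-CKO replicate 3 was above CTL replicate 1, so the groups overlapped. Its log2 fold change was -1.56 (standard error 0.60, unadjusted p = 0.0306, edgeR), and -0.76 without CTL replicate 3. The next 3 by p, Ighv1-26, Ighv1-69 and Ighv1-59, had unadjusted p values of 0.254, 0.279 and 0.290 (edgeR), and each was highest in CTL replicate 3.

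**Figure D5:**
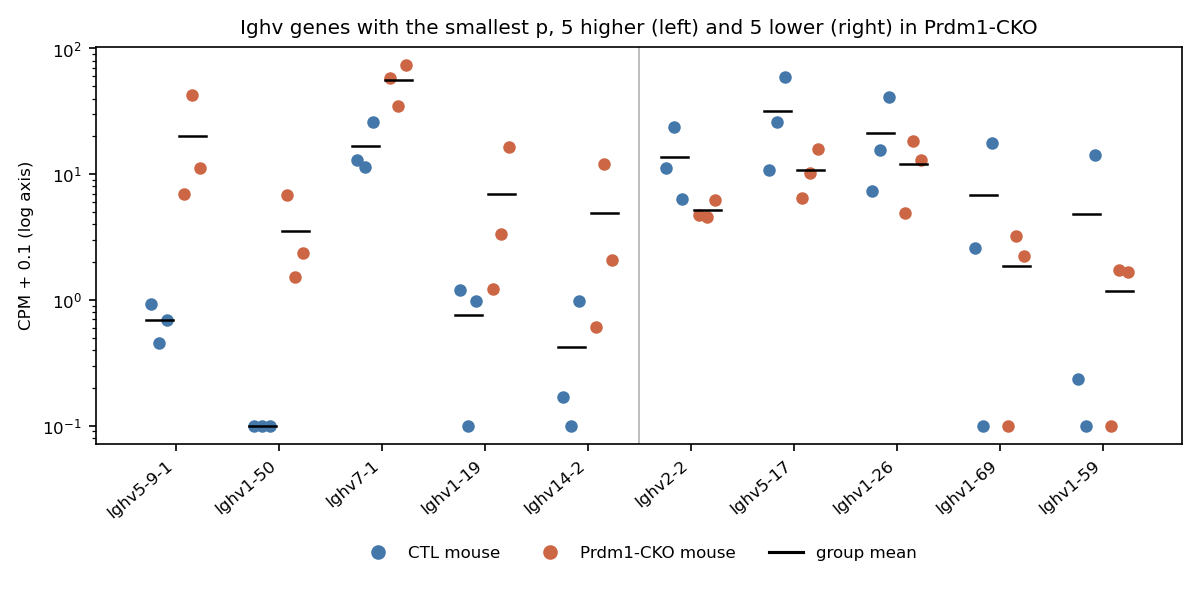
CPM + 0.1 on a log axis for the 5 Ighv genes with the smallest p among those higher in Prdm1-CKO mice (left) and the 5 among those lower (right), with 1 point per mouse and a line at each group mean. Ighv5-9-1, Ighv1-50 and Ighv7-1 show separated groups, while CTL and Prdm1-CKO points overlap for Ighv5-17, Ighv1-26, Ighv1-69 and Ighv1-59.

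Other abundant members had overlapping groups. Ighv6-3 was at 59.1, 26.1 and 15.1 CPM in CTL and 22.4, 71.3 and 60.2 CPM in Prdm1-CKO mice, and its log2 fold change was 0.60 (standard error 0.55, unadjusted p = 0.303, edgeR), with a range from 0.26 without CTL replicate 3 to 1.30 without CTL replicate 1. Ighv3-6 was at 27.5, 3.08 and 19.4 CPM in CTL and 61.1, 5.49 and 29.3 CPM in Prdm1-CKO mice. Ighv4-1 was at 46.1, 0 and 13.9 CPM in CTL and 19.6, 37.3 and 42.3 CPM in Prdm1-CKO mice. For all 3 the standard error of the log2 fold change was close to the fold change itself or larger.

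The leading members of the smaller families varied widely between mice of the same group. Ighv11-2 had 221, 0 and 24 counts in CTL and 196, 39 and 248 in Prdm1-CKO mice. Ighv13-2, the only member of its family, had 52, 0 and 9 counts in CTL and 0, 81 and 6 in Prdm1-CKO mice, and all of its stretches were unique (100%). Ighv14-3 had 75, 0 and 26 counts in CTL and 283, 77 and 66 in Prdm1-CKO mice. Ighv10-1 had 63, 0 and 73 counts in CTL and 31, 29 and 88 in Prdm1-CKO mice.

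Ighv12-3, the only member of its family, had 22, 0 and 5 counts in CTL and 44, 18 and 79 in Prdm1-CKO mice, and its groups did not overlap in CPM. Its log2 fold change of 2.05 (standard error 1.04) had an unadjusted p of 0.0832 with edgeR, and ran from 1.47 without CTL replicate 2 to 3.14 without CTL replicate 1. Ighv9-3 had 0, 0 and 76 counts in CTL and 95, 128 and 521 in Prdm1-CKO mice. Its log2 fold change was 2.33 with an unadjusted p of 0.174 (edgeR), and CTL replicate 3 lay above Prdm1-CKO replicate 1 in CPM. The fold change was 1.32 without Prdm1-CKO replicate 3, and without CTL replicate 3 both remaining CTL mice were at 0, so that the fitted value of 10.88 depends on the prior count.

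Some members were at 0 in a whole group. Counts were 0 in every CTL mouse alone for 15 members and 0 in every Prdm1-CKO mouse alone for 7, and no test was made of that difference. The share of all genes that meet the same rule was not computed, so these numbers cannot be read as a result about the members. CTL libraries had the lower totals, with a median of 8623180 against 14885913, and CTL replicate 2 alone had 86 members at 0. Of those at 0 in CTL, Ighv5-9 had 2, 100 and 153 counts and Ighv2-9-1 had 43, 6 and 60 counts in Prdm1-CKO mice, which is at least 20.7-fold and at least 7.11-fold higher against the floor of 3 counts per library. Both were named after their values were seen, and both failed the filter of the edgeR test. Ighv2-9-1 had an adjusted p of 0.0456 and Ighv5-9 one of 0.354 with DESeq2.

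The light chain V genes gave a comparison outside the members. Of 50 Igkv genes tested, 4 were higher and 0 lower in Prdm1-CKO mice at an unadjusted p under 0.05 (edgeR). Over all genes tested, 0.928% were higher and 1.42% lower at that limit. The log2 fold change was above 0 for 31 of the 50, with a median of 0.50 over the 50. These values were not computed without CTL replicate 2. For the heavy chain constant genes, 1 of 6 tested, Ighd of the IgD class, was higher at an unadjusted p under 0.05 and 0 were lower. None of these reached an adjusted p under 0.05.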

How the data were processed

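The authors isolated RNA from sorted splenic Tfh cells of 6 mice, made Smart-seq2 libraries, and sequenced paired reads of 25 bases. Per the submitters' processing notes, reads were aligned with STAR 2.4.2a to GRCm38.p6, and the study's methods name featureCounts for counting. The deposited values are raw counts per gene, 1 library per mouse, with no normalization. Strand use and the handling of multiply aligned reads are not given in the sources used here. The 112 members were matched by identifier and version to GENCODE M21 on GRCm38, where 53274 of the 53379 gene identifiers were found. A gene that meets the rule is not reported here. The members, marker lists and tests were chosen with earlier results of these data known.

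Counts were scaled with TMM factors and tested in R 4.3.3 with edgeR 4.0.16 (filterByExpr, quasi-likelihood F test, group as the only term, two-sided, Benjamini-Hochberg over the 14555 genes tested). DESeq2 1.42.0, other filters and scalings, the replicate block and each mouse left out were alternatives. The fits were checked on simulated data whose changed genes were known, had higher counts and shared a common dispersion with all other genes. That check did not cover members with few counts or a wide spread between mice, where edgeR and DESeq2 differed. Shares are percents of counts per kb of annotated exon. The named genes are the 8 highest on average, the leader of each mouse and of each family, the 5 higher and 5 lower with the smallest p, and the 3 with the most counts among those private to a mouse or group. With 3 mice a group, and nothing in the labels on litters, p-values measure the spread between these mice. Same-numbered mice had residual correlations of 0.159, 0.0282 and 0.016, against -0.131 to 0.0829 for the other pairs between groups. With 3 mice a group these values cannot decide whether the mice were paired. The numbers were not taken as pairs, and the block was run as an alternative. Figures used matplotlib 3.10.9.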

Additional observations from a re-analysis of the deposited data

How the results depend on the processing

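At an adjusted p under 0.05, DESeq2 called 4 members higher and edgeR without the filter called 1 (Ighv5-9-1), against 0 with edgeR as reported. At an unadjusted p under 0.05, 7 higher and 2 lower became 13 and 6 with DESeq2, and 27 and 8 without the filter. With at least 10 counts asked in every mouse, 10 members were left to test, 2 were higher and 2 lower (20% each, against 0.917% and 1.77% of all genes), and 5 of the 10 were above 0. Leaving out 1 mouse gave 3 to 16 higher and 1 to 5 lower, with 16 and 4 of 61 members without CTL replicate 1 (3.94% and 3.24% of all genes), 11 and 2 of 64 without CTL replicate 2 (1.43% and 0.879%), 15 and 1 of 62 without CTL replicate 3 (2.14% and 3.94%), and 3 and 5 of 55 without Prdm1-CKO replicate 3 (0.394% and 0.788%). The median log2 fold change ran from 0.48 without Prdm1-CKO replicate 3 to 1.46 without CTL replicate 1, and was 0.13 over the 10 members with at least 10 counts in every mouse. With the replicate block, 9 were higher and 2 lower of 48 (1.202% and 1.35% of all genes), 0 passed an adjusted p under 0.05, and the median was 1.26. Whether the replicate numbers pair the mice is not known. The ratio of the total Ighv level ran from 1.204 to 1.77 with 1 mouse left out, and was 0.979 relative to the B cell markers. Without the leading gene of each mouse, the family difference in percentage points was 1.498 for Ighv5, 3.70 for Ighv6 and -2.60 for Ighv3. Over the 12 members with at least 90% unique stretches it was -18.2 for Ighv5 and -33.5 for Ighv6, and that of the leading share was -16.7, each computed on few genes. CTL replicate 2 had a single count over these members, in Ighv6-4, the only Ighv6 member among them. That count made up all of the Ighv6 share and the leading share of that mouse. The values of -33.5 and -16.7 rest on it. With 1 mouse left out, the differences ran from -18.9 to -6.07 (Ighv1), -4.75 to -1.18 (Ighv5), -7.14 to 1.34 (Ighv6), 7.29 to 11.2 (Ighv7), -0.782 to 6.80 (Ighv3), 2.31 to 9.37 (effective number) and -0.973 to 2.13 (leading share). Private members numbered 3 with 0 counts asked in the other mice, 4 with at least 30 counts in the mouse, 13 with at least 90% of the summed CPM in it, and 7 to 16 with 1 mouse left out (16 without Prdm1-CKO replicate 3). Of 236 values for the 21 named genes with a log2 fold change, 228 kept their direction. Without CTL replicate 3 the sign turned for Ighv1-74 (0.064; range with 1 mouse left out -2.98 to 0.064), Ighv1-26 (0.093; -1.27 to 0.093), Ighv10-1 (0.69; -1.10 to 0.69), Ighv1-69 (0.44; -2.65 to 0.44) and Ighv1-59 (3.57; -2.76 to 3.57). It turned without Prdm1-CKO replicate 2 for Ighv13-2 (-2.99; -2.99 to 2.09), and with the block for Ighv10-1 (0.21) and Ighv13-2 (-1.23). Where no construction shows it, the cause was not tested. Depth limits the members with few counts, and sequence overlap limits those with few unique stretches.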

Other observations

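The constant genes that follow the V gene in a heavy chain transcript also differed from mouse to mouse. Ighm, of the IgM class, had 17100 to 63445 counts in every mouse. Igha, of the IgA class found in mucosal antibody, was at 72.0, 308 and 1369 CPM in CTL and 217, 642 and 832 CPM in Prdm1-CKO mice, highest in CTL replicate 3 and overlapping between the groups. Ighg3 was at 3.08, 4.03 and 54.7 CPM in CTL and 4.85, 74.4 and 96.4 CPM in Prdm1-CKO mice, low in 3 mice of both groups and high in the other 3. Ighg2c had 221 counts in CTL replicate 3, 613 counts in Prdm1-CKO replicate 1, 3 counts in Prdm1-CKO replicate 3 and 0 in the other mice. Ighe had 0 counts throughout. Among these only Ighd, of the IgD class, reached an unadjusted p under 0.05 with edgeR, at 17.3, 8.65 and 15.1 CPM in CTL and 29.7, 19.5 and 25.7 CPM in Prdm1-CKO mice (adjusted p = 0.996, groups not overlapping).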
